A study of Mus musculus with 6 samples.

Results

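Semaphorin, plexin, neuropilin, Dpysl, Robo and Slit genes were examined in GMPs (granulocyte-macrophage progenitors), the marrow cells that give rise to neutrophils and monocytes, from mice with and without Cre to delete Bap1, whose product removes ubiquitin from histone H2A. The genes were taken by symbol (Sema, Plxna to Plxnd, Nrp1, Nrp2, Dpysl, Robo and Slit followed by their numbers), which gave 45 of the 37620 gene IDs in the table. They comprise 20 semaphorin genes, 9 plexin genes, 3 antisense transcripts of Plxna4 that share its symbol, 2 neuropilin genes, 4 Dpysl genes, 4 Robo genes and 3 Slit genes. The comparison rests on 3 control libraries from Bap1 f/f mice without Cre and 3 libraries from MX1+ Cre Bap1 f/f mice, labelled knockout. All were C57BL/6 mice whose age the labels give as 65 days, with polyI:polyC injected at 42 days. The design text of the series gives an earlier age for the injections. Both groups thus carried the floxed allele and received polyI:polyC, an inducer of interferon, while Cre, driven by the interferon-responsive Mx1 promoter, was carried by the knockout-labelled group only, so effects of the recombinase and of the lost gene cannot be told apart here. Mx1-Cre acts in blood cells and in other interferon-responsive tissues. Cells were sorted as Lineage-, c-Kit+, Sca1-, CD34+ and stained for Fc receptors. Nothing in the labels says which animal each library came from, so p-values measure the spread between these libraries.

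Semaphorins are secreted or membrane-bound ligands that were first known for steering growing axons. Their main receptors are the plexins, whose intracellular part acts on small GTPases, and the secreted class 3 semaphorins bind plexins through the neuropilins Nrp1 and Nrp2, which also bind vascular endothelial growth factors. The Dpysl proteins (collapsin response mediators) bind tubulin and relay semaphorin signals to microtubules, while Slit ligands and Robo receptors form a separate repulsive guidance system. In blood cells, class 4 semaphorins such as Sema4a and Sema4d act between immune cells, and plexins affect the adhesion and migration of myeloid cells.

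The libraries held 19.5 to 25.9 M gene reads. Bap1 (ENSMUSG00000021901), the targeted gene, stood at 1343, 998 and 1076 normalized counts in control libraries 1 to 3 and at 2671, 3309 and 2968 in the knockout-labelled libraries, so all 3 of the latter were higher, against the label (log2 fold change 1.39, SE 0.14, limma adjusted p = 6.07e-05). A count over the whole gene includes exons outside any deleted part and does not check the deletion. Every direction below is therefore that of the libraries labelled knockout. Of 14 GMP markers all were read and tested, led by the granule gene Mpo, whose mean was 509920 normalized counts in control libraries and 635310 in knockout-labelled ones; 6 of the 14 were called higher and 2 lower. Markers of the other cell types of the marrow moved between the groups as well. Of 12 tested dendritic cell markers 10 were lower in the knockout-labelled libraries, as were 9 of 11 monocyte and macrophage markers, 10 of 10 B lymphoid markers and 4 of 5 T and NK cell markers. All normalized counts are gene counts that the authors divided by 1 size factor per library, where 1 read was worth 0.888 to 1.14.

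Of the 45 genes, 17 had no read in any of the 6 libraries, 17 were read at a mean below 10 normalized counts and were left out of the main test, and 11 were tested. By limma on log2(normalized count + 1), at a Benjamini-Hochberg adjusted p of 0.05 over all 14391 tested genes, 3 of the 11 were higher in the knockout-labelled libraries (Sema4d, Plxnd1 and Plxna1) and 4 were lower (Nrp1, Dpysl2, Plxnc1 and Plxnb2). Among all genes tested, 26.8% were called, 11.8% higher and 15.0% lower. edgeR on the recovered reads called 26.0% (11.7% higher, 14.4% lower), DESeq2 24.8% (11.2% and 13.5%) and limma with correction for GC content and length 31.1% (14.4% and 16.6%), and each called these 7 guidance genes in the same directions. The 3 control and 3 knockout-labelled values did not overlap for 8 of the 11, against 42.9% of all tested genes. The median log2 fold change of the 11 was -0.19, beside 0.01 over all tested genes. Plxna1 passed the filter on low values through the knockout-labelled group alone, so these counts describe the 11 genes and do not stand for the 45. In the scatter of group means, Nrp1 and Dpysl2 lie farthest below the line of equal values.

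**Figure D1:**
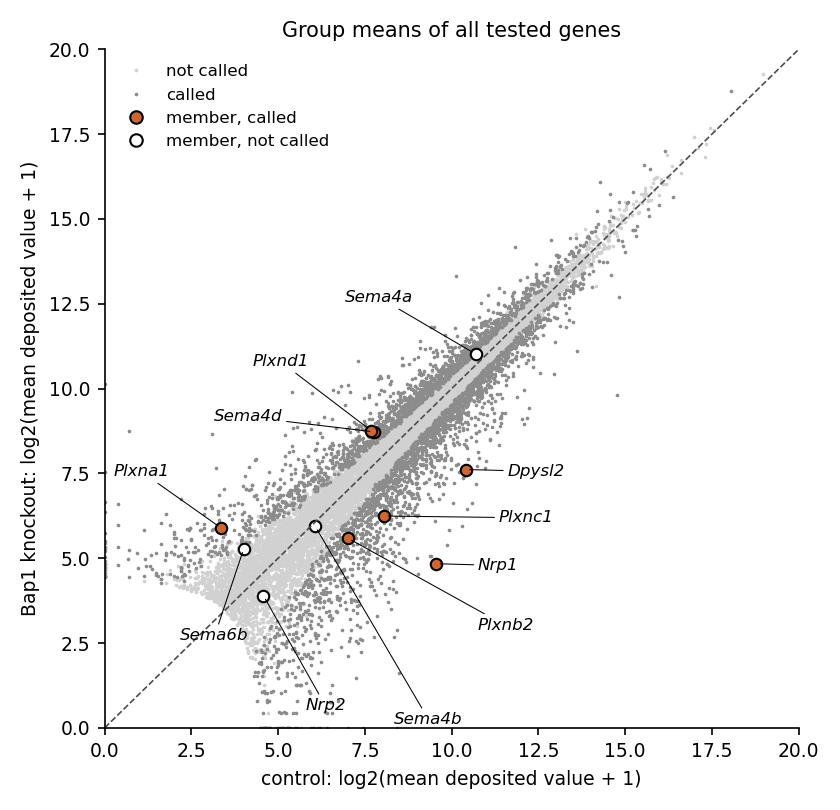
Each point is 1 of the 14391 tested genes, placed by log2(mean normalized count + 1) in the control libraries (horizontal) and in the libraries labelled Bap1 knockout (vertical), with the 11 tested guidance genes drawn as circles, filled where called by limma. Nrp1, Dpysl2, Plxnc1 and Plxnb2 lie below the dashed line of equal means, and Plxna1, Plxnd1 and Sema4d above it.

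From the called genes, the 250 bases before the start are shown for a gene that fell steeply (Nrp1), a falling and a rising plexin (Plxnc1 and Plxnd1) and the rising ligand Sema4d. The sequences are from RefSeq on build GRCm38.p6, given 5′ to 3′ on the strand of the gene, with CpG dinucleotides in capitals. Of the 45 genes, 33 had a window in that table, among them 5 of the 7 called genes, all but Dpysl2 and Plxna1. The windows are those of Nrp1 at chr8:128358823-128359072 (plus strand), Plxnc1 at chr10:94944846-94945095 (minus strand), Plxnd1 at chr6:115995006-115995255 (minus strand) and the farthest upstream of 3 starts of Sema4d at chr13:51756684-51756933 (minus strand).
Nrp1: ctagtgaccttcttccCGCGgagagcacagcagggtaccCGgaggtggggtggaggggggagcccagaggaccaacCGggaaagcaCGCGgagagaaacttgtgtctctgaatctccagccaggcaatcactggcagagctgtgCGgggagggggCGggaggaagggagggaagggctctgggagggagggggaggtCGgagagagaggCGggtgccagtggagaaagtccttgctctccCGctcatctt
Plxnc1: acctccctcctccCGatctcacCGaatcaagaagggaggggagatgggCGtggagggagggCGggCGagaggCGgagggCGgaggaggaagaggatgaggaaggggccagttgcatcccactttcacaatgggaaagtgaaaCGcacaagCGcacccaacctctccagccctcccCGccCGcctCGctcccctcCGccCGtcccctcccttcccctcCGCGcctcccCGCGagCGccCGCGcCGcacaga
Plxnd1: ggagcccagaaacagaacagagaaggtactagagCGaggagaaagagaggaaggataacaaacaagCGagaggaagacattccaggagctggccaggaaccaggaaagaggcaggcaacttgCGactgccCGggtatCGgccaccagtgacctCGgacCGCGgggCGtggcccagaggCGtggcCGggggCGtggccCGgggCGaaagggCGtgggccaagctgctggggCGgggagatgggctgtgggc
Sema4d: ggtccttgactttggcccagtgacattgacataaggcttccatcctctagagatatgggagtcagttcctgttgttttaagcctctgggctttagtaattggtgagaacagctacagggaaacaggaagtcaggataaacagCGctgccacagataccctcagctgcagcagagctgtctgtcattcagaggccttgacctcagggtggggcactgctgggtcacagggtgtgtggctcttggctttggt

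The Plxnc1 window held 22 CpG dinucleotides, that of Plxnd1 16 and that of Nrp1 11, while the 3 Sema4d windows held 1, 2 and 2. The windows of Plxnb2, which fell, held 13 and 20. Over 32851 such windows in the table the median was 6, with quartiles of 2 and 16. Among the tested genes not called, the window of Nrp2 held 32, those of Sema4b 20 and 23, those of Sema6b 5 and 20 and those of Sema4a 2 to 13. CpG-rich starts were thus present for the falling plexins, for the rising Plxnd1 and among the genes not called. The other rising plexin, Plxna1, had no window. Sema4d was the CpG-poor one of the 4 genes shown. The short word GAGGAA, the core of sites for the myeloid factor PU.1, was searched on both strands and occurred 2 times before Plxnc1, 2 times before Plxnd1 and 1 time before Nrp1, and did not occur in the windows of Plxnb2 and Sema4d. It occurred in 23.3% of all windows, and among the tested genes not called in windows of Sema4a, Sema4b and Sema6b but not of Nrp2. The ETS-IRF composite element, searched in the same way and able to overlap GAGGAA, occurred in 2.3% of all windows and in none of the windows of Nrp1, Plxnc1, Plxnb2, Plxnd1 and Sema4d. A match is a description of the letters and not evidence of a bound site.

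Among the ligands, Sema4d (ENSMUSG00000021451), also known as CD100 and a ligand of plexin B receptors and of Cd72 on lymphocytes, rose. Its normalized count was 198, 221 and 230.0 in control libraries 1 to 3 and 352, 406 and 507 in knockout-labelled libraries 1 to 3. The 2 groups did not overlap, a separation in that direction seen in 20.4% of all tested genes. The means were 216 ± 16.4 and 422 ± 78.7 (SD, n = 3 each), a 1.93-fold rise (log2 fold change 0.95, SE 0.20, limma adjusted p = 0.00493). Here and below, folds are differences between group means of log2(normalized count + 1). Sema4d stayed called with any 1 library left out.

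Sema4a (ENSMUSG00000028064), an immune semaphorin that acts on T cells and binds plexins including Plxnd1, had the highest level of these genes per kilobase of exon in both groups, at 305 ± 32.1 and 383 ± 135 normalized counts per kilobase (SD, n = 3 each). Its normalized count was 1848, 1524 and 1578 in control libraries and 1618, 2916 and 1681 in knockout-labelled libraries. Knockout replicate 2 was high and the other 2 lay within the control range. The log2 fold change of 0.28 (95% interval -0.16 to 0.72) did not pass (limma adjusted p = 0.338), and it was 0.00 without knockout replicate 2. Sema4b (ENSMUSG00000030539), a membrane semaphorin of the same class, stood at 61.3, 69.8 and 66.9 in control libraries and 39.5, 56.2 and 85.6 in knockout-labelled libraries, which spread to both sides of the control values (log2 fold change -0.19, 95% interval -0.98 to 0.60, adjusted p = 0.733). Sema6b (ENSMUSG00000001227), a transmembrane ligand of plexin A receptors, was low. It stood at 23.1, 12.4 and 9.80 in control libraries and at 30.9, 51.0 and 32.0 in knockout-labelled libraries. The groups did not overlap, but the difference missed the threshold (log2 fold change 1.32, 95% interval 0.21 to 2.44, adjusted p = 0.0757), and the estimate was 0.77 after correction for GC content and transcript length.

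The other 16 semaphorin genes were below the filter of the limma test. No read of Sema3a, Sema3d, Sema3f, Sema3g, Sema5a, Sema5b, Sema6c or Sema7a was counted in any library, among them several secreted class 3 ligands of the neuropilins and the GPI-anchored Sema7a, a ligand of Plxnc1. At 0 reads, the limit that 3 reads allow was 2.67 to 3.43 normalized counts per library, which covers counting error only. The remaining 8 (Sema3b, Sema3c, Sema3e, Sema4c, Sema4f, Sema4g, Sema6a and Sema6d) had 3 to 51 reads over all 6 libraries. The highest mean of these was that of Sema4c, a ligand of Plxnb2, at 8.32 normalized counts over the 6 libraries (edgeR log2 fold change -0.36, adjusted p = 0.805). None of the 8 was called when limma tested all genes of 1 read or more. Reads without a unique alignment were listed apart from the genes, at 26.8 to 28.8% of all reads listed.

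**Figure D2:**
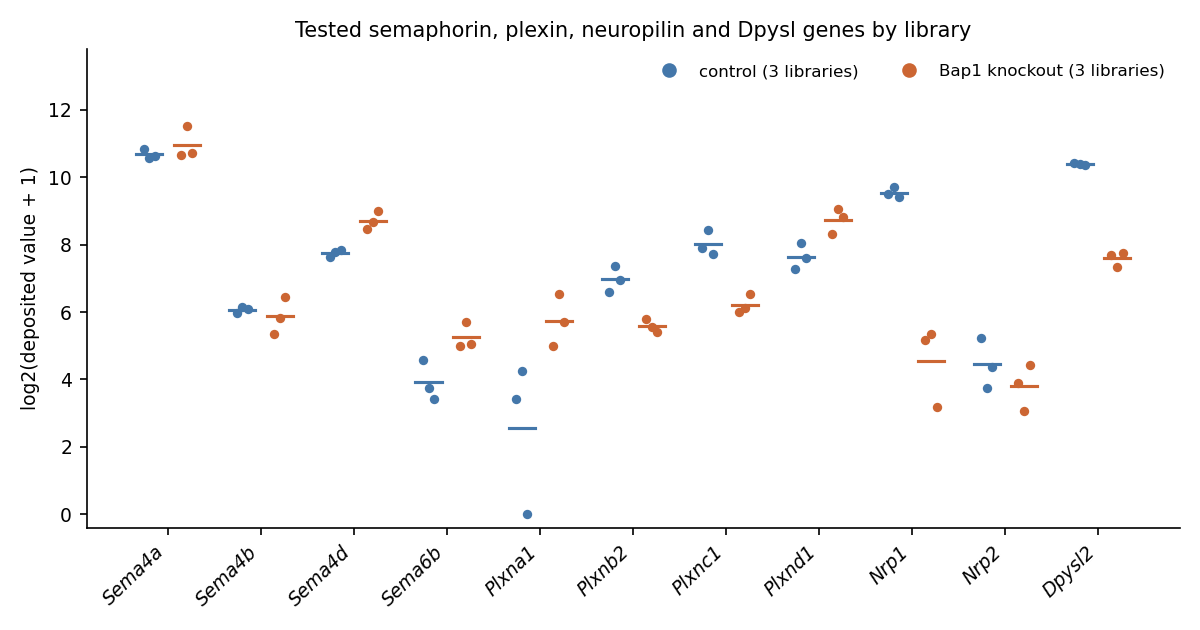
Each point is 1 library, at log2(normalized count + 1), for the 11 tested guidance genes, with control libraries in blue, libraries labelled Bap1 knockout in orange and a bar at the mean of each group of 3. The groups are apart for Sema4d, Sema6b, Plxna1, Plxnb2, Plxnc1, Plxnd1, Nrp1 and Dpysl2, and they overlap for Sema4a, Sema4b and Nrp2.

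The plexin receptors moved in opposite directions. Plxnc1 (ENSMUSG00000074785), the receptor of Sema7a, stood at 239.9, 342 and 210.4 normalized counts in control libraries 1 to 3 and at 62.9, 68.7 and 92.5 in knockout-labelled libraries 1 to 3. The highest knockout-labelled library was below the lowest control library, as in 22.5% of all tested genes. Plxnc1 fell 3.47-fold, from 264 ± 69.1 to 74.7 ± 15.7 (SD, n = 3 each; log2 fold change -1.80, SE 0.28, limma adjusted p = 0.000806). Plxnb2 (ENSMUSG00000036606), a receptor of class 4 semaphorins, stood at 95.1, 165 and 124 in control libraries and at 54.4, 45.8 and 41.1 in knockout-labelled libraries. The groups did not overlap, with control replicate 2 the highest. Its fall was 2.63-fold (log2 fold change -1.40, SE 0.32, adjusted p = 0.00807) and missed the threshold without control replicate 2 (log2 fold change -1.20, adjusted p = 0.0519).

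Plxnd1 (ENSMUSG00000030123), a receptor for Sema3e and Sema4a, stood at 154, 265 and 193 in control libraries and at 320.0, 528 and 449.9 in knockout-labelled libraries. All 3 knockout-labelled libraries lay above all 3 controls. It rose 2.13-fold, from 204 ± 56.3 to 433 ± 105 (SD, n = 3 each; log2 fold change 1.09, SE 0.25, limma adjusted p = 0.00857), and its log2 fold change was 0.68 after GC and length correction (adjusted p = 0.0328). Plxna1 (ENSMUSG00000030084), the plexin that partners with Trem2 and Tyrobp in myeloid cells, stood at 9.77, 18.2 and 0 in control libraries and at 30.9, 91.6 and 51.4 in knockout-labelled libraries. Control replicate 3 had no read of it and knockout replicate 2 the highest value. The log2 fold change was 3.18 (SE 0.95, limma adjusted p = 0.0290) by limma, 2.63 by edgeR and 2.65 by DESeq2. By limma it was 1.90 without control replicate 3 (adjusted p = 0.0474) and 4.03 without control replicate 2 (0.0162), and the call was lost without knockout replicate 2 (2.79, adjusted p = 0.120) or knockout replicate 3 (3.20, adjusted p = 0.0671). The size of the Plxna1 rise is thus poorly fixed by these libraries.

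Summed over the 9 genes, plexin RNA per kilobase of exon differed little between the groups, with 63.9, 101 and 68.7 normalized counts per kilobase in control libraries 1 to 3 and 64.6, 98.6 and 86.1 in knockout-labelled libraries, which overlap. What differed was the make-up of that sum, a measure chosen after the values were seen and given without a test. Plxnc1 made up 45.0, 40.6 and 36.7% of it in control libraries and 11.7, 8.34 and 12.9% in knockout-labelled libraries. Plxnd1 made up 33.0, 35.9 and 38.4% in control and 67.9, 73.3 and 71.6% in knockout-labelled libraries. The share of Plxnb2 went from 21.3 ± 2.04 to 7.71 ± 2.78% and that of Plxna1 from 1.23 ± 1.07 to 7.38 ± 2.58% (SD, n = 3 each). Plxnc1 was thus the leading plexin in control libraries 1 and 2, just below Plxnd1 in control library 3, and Plxnd1 led in all 3 knockout-labelled libraries.

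**Figure D3:**
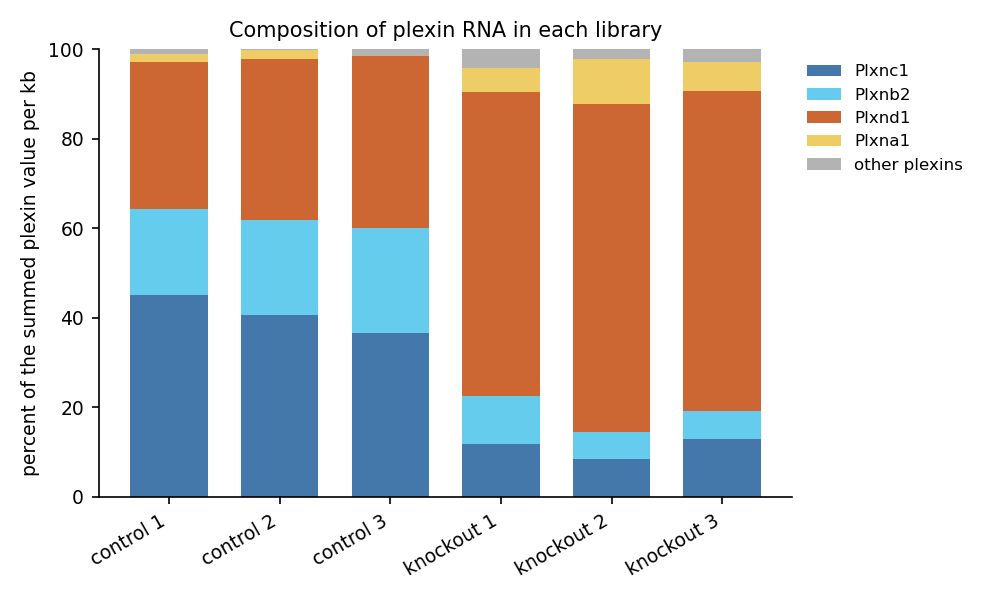
Bars show, for each of the 6 libraries, the percent of the summed plexin value per kilobase of exon that each plexin gene contributed. Plxnd1 (dark orange) made up 33.0 to 38.4% in control libraries and 67.9 to 73.3% in libraries labelled knockout, while Plxnc1 (dark blue) went from 36.7 to 45.0% down to 8.34 to 12.9%.

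Of the remaining plexins, Plxnb1, the main receptor of Sema4d outside the lymphoid system, had no read in any library. Plxna2, Plxna3, Plxna4 and Plxnb3 had 12 to 42 reads over all libraries, and the 17 reads of Plxna4 all came from knockout replicate 3. Of the antisense transcripts, Plxna4os1 had 13 reads in control replicate 1 and 15 in control replicate 3 and none in the other 4 libraries, while Plxna4os2 and Plxna4os3 had none. No source used here states the strand setting of the counting. The strand from which the reads listed for Plxna4 and for Plxna4os1 came is therefore not known.

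Nrp1 (ENSMUSG00000025810), the co-receptor of class 3 semaphorins and of vascular endothelial growth factor, showed the steepest fall of the 11 tested genes. Its normalized count was 727, 837 and 686 in control libraries 1 to 3 and 35.2, 39.6 and 7.99 in knockout-labelled libraries 1 to 3. Every knockout-labelled library was far below every control, and knockout replicate 3 was the lowest. The means were 750.0 ± 78.0 and 27.6 ± 17.1 (SD, n = 3 each). The difference between the means of the log2 values was -4.98 (SE 0.47, limma adjusted p = 3.58e-05), or 31.7-fold, and was drawn down by knockout replicate 3. DESeq2, which compares mean counts, gave -4.75. Of all 14391 tested genes 45 had a lower log2 fold change. Without knockout replicate 3 it was -4.29 (adjusted p = 2.67e-06). In sorted bulk samples, fewer cells that express a gene and less RNA per cell cannot be told apart.

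Nrp2 (ENSMUSG00000025969), the related co-receptor, was close to the filter, at 36.4, 12.4 and 19.6 in control libraries and 13.9, 7.29 and 20.6 in knockout-labelled libraries. The groups overlapped, and the log2 fold change of -0.65 had a 95% interval from -2.00 to 0.69 (limma adjusted p = 0.467). Per kilobase of exon, Nrp1 stood at 76.7 ± 7.97 and Nrp2 at 1.93 ± 1.04 normalized counts in control libraries, against 2.82 ± 1.75 and 1.17 ± 0.560 in knockout-labelled libraries (SD, n = 3 each). In control libraries Nrp1 thus ranked below Sema4a and Dpysl2 alone among the 11 tested genes, and in knockout-labelled libraries above Nrp2 alone, with a gap between the neuropilins no larger than the SD of Nrp1.

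Nrp1 is also known from dendritic cells, some T cells, macrophages and endothelium. Most tested markers on the dendritic, monocyte and macrophage, and joint T and NK lists were lower in the same libraries. The T and NK list does not settle a direction for T cells. On it Lck (means of 130 in control and 31.7 in knockout-labelled libraries), Ncr1, Klrb1c and Gzmb fell. Cd5 rose, from 2.69 to 22.3, and Cd3e, Cd3d, Cd3g, Cd4 and Cd8a were below the filter. The summed dendritic markers ran from 18994 to 33654 normalized counts in control and from 3211 to 8091 in knockout-labelled libraries. The summed monocyte and macrophage markers ran from 31445 to 32978 and from 9753 to 12995, and the summed T and NK markers from 550 to 882 and from 99.95 to 178. Of 13 endothelial and stromal markers 7 were tested, of which 2 rose, 3 fell and 2 (Pecam1 and Pdgfrb) did not pass. Their sum was higher, at 18207 to 22567 against 5629 to 6044 in control libraries, mostly through the adhesion gene Vcam1 (3568, 3597 and 3778 in control and 20075, 20067 and 14859 in knockout-labelled libraries), which macrophages also express, and Egfl7 rose as well. Emcn, Cxcl12 and Spp1 fell, the endothelial receptor gene Kdr stood at a mean of 4.49 in control and 0 in knockout-labelled libraries, and Cdh5 and Col3a1 had no read in any library. Genes of the sort gate moved in both directions. Cd34 was lower, at means of 11499 in control and 3963 in knockout-labelled libraries, as was the Fc receptor gene Fcgr3 (13250 and 7836). Kit was higher, at 1096 and 1524. Fcgr2b (2665 and 2392) and Ly6a, the gene of Sca1 (88.6 and 59.9), did not pass. The part of these cells and of the gate in the falls of Nrp1, Dpysl2, Plxnc1 and Plxnb2, and in the rises of Plxnd1, Plxna1 and Sema4d, was not tested.

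Dpysl2 (ENSMUSG00000022048), which encodes the collapsin response mediator CRMP2, was the only Dpysl gene with reads. Its normalized count was 1387, 1341 and 1327 in control libraries 1 to 3 and 207, 160.3 and 217 in knockout-labelled libraries 1 to 3. The values were tight within both groups and far apart between them. It fell 6.97-fold, from 1352 ± 31.4 to 195 ± 30.2 (SD, n = 3 each; log2 fold change -2.80, SE 0.17, limma adjusted p = 1.81e-06), and 329 of the 14391 tested genes had a lower log2 fold change. In control libraries its level per kilobase of exon, 299 ± 6.94, lay within the spread of that of Sema4a, and in knockout-labelled libraries it was 43.1 ± 6.69. Dpysl3, Dpysl4 and Dpysl5, known mainly from neurons, had no read, and so had the neuronal genes Map2, Rbfox3 and Nefl.

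The Slit and Robo genes were at or near the floor. Robo1, Robo2 and Slit2 had no read in any library. Robo3 had 54 and Robo4, an endothelial receptor, 50 reads over the 6 libraries, with means of 8.59 and 8.28 normalized counts, just below the filter. Slit1 had 9 reads and Slit3 1 read. None of them was called with all genes of 1 read or more tested by limma, and edgeR gave Robo3 a log2 fold change of -0.85 (adjusted p = 0.429) and Robo4 one of 0.49 (0.728).

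**Figure D4:**
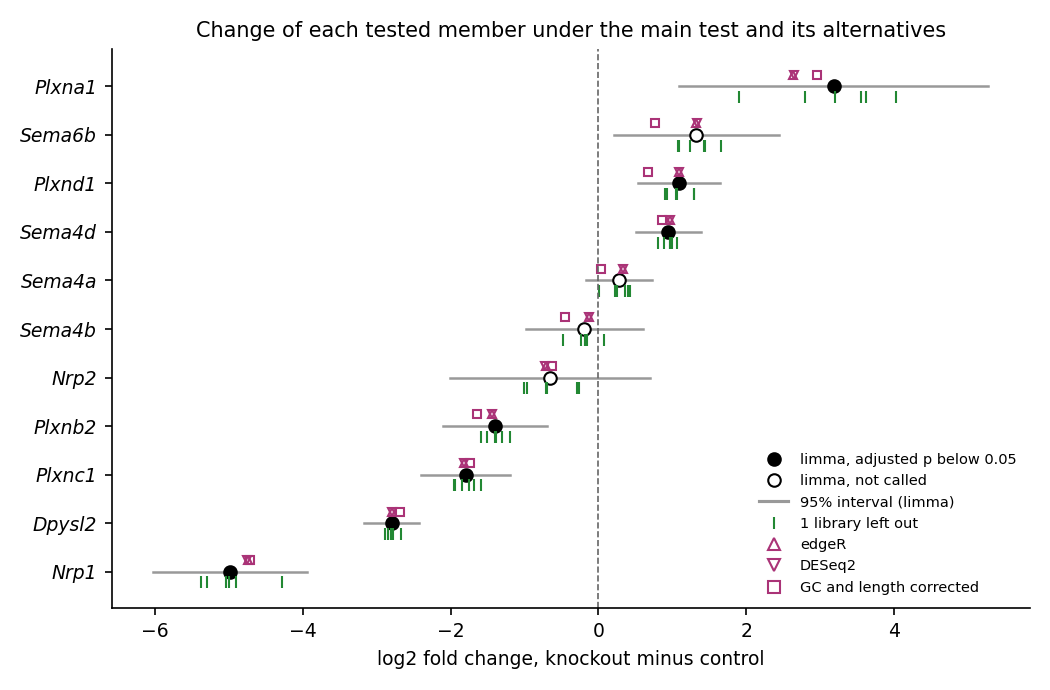
Circles give the limma log2 fold change of each tested gene (filled where the adjusted p is below 0.05) with its 95% interval, green ticks the 6 estimates with 1 library left out, and open symbols edgeR, DESeq2 and the GC and length correction. Nrp1 lies at -4.98 and Dpysl2 at -2.80, and the estimates of Plxna1 run from 1.90 to 4.03 as single libraries are left out.

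Genes that surround these receptors and ligands were described from lists of known partners, each count set beside the 26.8% of all tested genes that were called in either direction. Among those called, Hgf, Arhgef11 and Srgap3 (knockout-labelled means of 4.95, 5.83 and 3.71) passed the filter on low values through the control group alone. A receptor partner that rose passed it through the knockout-labelled group alone, so these counts describe the tested genes and not the whole lists. Of 15 tested receptor partners and other receptors, 4 rose and 4 fell (53.3%), with a median log2 fold change of 0.25. Met, the hepatocyte growth factor receptor that associates with plexin B receptors, went from 390 ± 46.4 to 31.1 ± 7.50 normalized counts (SD, n = 3 each; log2 fold change -3.63, SE 0.28, limma adjusted p = 9.44e-06). Itga1, an integrin chain and part of a Sema7a receptor, stood at 232, 379 and 346 in control libraries and at 10.7, 20.8 and 17.1 in knockout-labelled libraries, an 18.8-fold fall. Cd72, the lymphocyte receptor of Sema4d, fell 2.34-fold (adjusted p = 0.000706) and Cd44, a hyaluronan receptor, 1.54-fold (0.00196). Sema4d was thus higher in the libraries in which both Cd72 and Plxnb2 were lower. B lymphoid markers, whose cells carry Cd72, summed to 2383 to 2886 normalized counts in control and 1103 to 1432 in knockout-labelled libraries, and their part in the fall of Cd72 was not tested. The syndecan gene Sdc1, a heparan sulfate carrier, rose 5.03-fold (limma adjusted p = 0.000311), and the vascular endothelial growth factor receptor gene Flt1 2.07-fold (0.0276), which missed the threshold when control replicate 2 (0.107), control replicate 3 (0.0685), knockout replicate 1 (0.0906) or knockout replicate 3 (0.0682) was left out. Tyrobp, the signalling adaptor that Plxna1 uses, was at 4244 ± 236 and 4177 ± 849 (SD, n = 3 each; limma adjusted p = 0.863, and 0.0430 with a log2 fold change of -0.34 once GC content and length were corrected for), and the integrin chain Itgb1 at 1965 ± 234 and 2343 ± 338 (limma adjusted p = 0.224, and 0.0124 with that correction, at a log2 fold change of 0.46).

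Among 6 tested other ligands of neuropilins and their partners 2 fell and 4 did not pass, with a median log2 fold change of -0.07. Hgf, the ligand of Met, stood at 207, 80.3 and 108 normalized counts in control libraries and at 0, 0 and 14.8 in knockout-labelled libraries, so knockout replicate 3 alone of that group had reads. Its limma adjusted p was 0.00152, but 0.0572 by DESeq2 on the recovered reads. Its log2 fold change of -5.61 depends on the pseudocount, and it was -6.94 without knockout replicate 3 and -4.94 without knockout replicate 1 or 2. Lgals1, a galectin that binds Nrp1, fell 1.49-fold (adjusted p = 0.00579). Vegfb was at 107 ± 25.2 and 58.5 ± 13.5 (SD, n = 3 each; limma adjusted p = 0.0722, and 0.0149 with correction for GC content and length) and Tgfb1 at 195 ± 31.5 and 290 ± 81.2 (limma adjusted p = 0.120). By limma, Met and Hgf, a receptor and its ligand, were thus both called lower, while DESeq2 called Met alone of the 2.

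Inside the cell, 3 of 43 tested plexin and neuropilin signalling genes rose and 5 fell (18.6%), with a median log2 fold change of 0.02. Mical1, an oxidase that takes actin filaments apart downstream of plexin A, stood at 952, 1101 and 983 normalized counts in control libraries and at 1382, 2313 and 2174 in knockout-labelled libraries, a 1.89-fold rise (limma adjusted p = 0.00378). Rnd2, a small GTPase, rose 2.39-fold (0.00611). Arhgef11, an exchange factor that binds the tail of plexin B, stood at 35.5, 64.0 and 25.8 in control libraries and at 5.33, 4.16 and 7.99 in knockout-labelled libraries. Its 6.01-fold fall (limma adjusted p = 0.00732) missed the threshold without control replicate 2 (0.0547), and so did the falls of the Ras relative Mras (log2 fold change -1.81, adjusted p = 0.0104, 0.0567 without that library) and of the kinase gene Pik3ca (-0.77, adjusted p = 0.0150, 0.0802 without it). Pak1, a kinase activated by Rac and Cdc42, fell 1.55-fold (adjusted p = 0.00389). The abundant Rac2, the Rac GTPase of blood cells, and Cfl1, the actin-severing cofilin, were at 31436 and 34672 and at 30315 and 30874 (limma adjusted p = 0.551 and 0.912).

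Of 19 tested genes of Slit and Robo signalling 5 fell and 14 did not pass, with a median log2 fold change of -0.18. The share called, 26.3%, was near the 26.8% of all tested genes. Robo1, Robo2 and Slit2 themselves were at 0 reads. Srgap3, a Rac-inactivating protein that binds Robo receptors, stood at 92.4, 83.1 and 40.1 normalized counts in control libraries and at 1.07, 2.08 and 7.99 in knockout-labelled libraries (log2 fold change -4.15, SE 0.68, limma adjusted p = 0.00113, and -4.76 without knockout replicate 3). The adaptor gene Nck1 fell 1.78-fold (adjusted p = 0.00401) and the Ras exchange factor gene Sos1 2.22-fold (0.0111, but 0.0524 without control replicate 3). Cdc42, a GTPase of actin control, was 1.35-fold lower (limma adjusted p = 0.0318). It missed the threshold with any of control replicates 1 (0.0860), 2 (0.110) and 3 (0.120) or knockout replicate 2 (0.0521) left out, with all genes of 1 read or more tested (0.0558), and once GC content and length were corrected for (0.0725), so that 8 of 16 alternatives did not call it. Pak1 counts in this list as well. Rac1 and Git2 did not pass (limma adjusted p = 0.353 and 0.950).

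The other guidance families gave little signal in these cells. Of 39 ephrin, Eph receptor, netrin, RGM and related genes matched, 13 had no read and 5 were tested. By limma 0 of the 5 passed, 0 had an unadjusted p under 0.05, and by edgeR 0 of 5 passed, while DESeq2, which tested 11, called 2 higher. Those 2, Epha4 and Ntng2, were named after their values were seen and had means of 5.95 and 6.19 normalized counts over the 6 libraries. Epha7, an Eph receptor and the most abundant of the 5, was at 222 ± 39.3 and 225 ± 56.7 and Ephb6 at 24.6 ± 9.20 and 9.70 ± 1.89 normalized counts (SD, n = 3 each; limma adjusted p = 0.995 and 0.141).

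**Figure D5:**
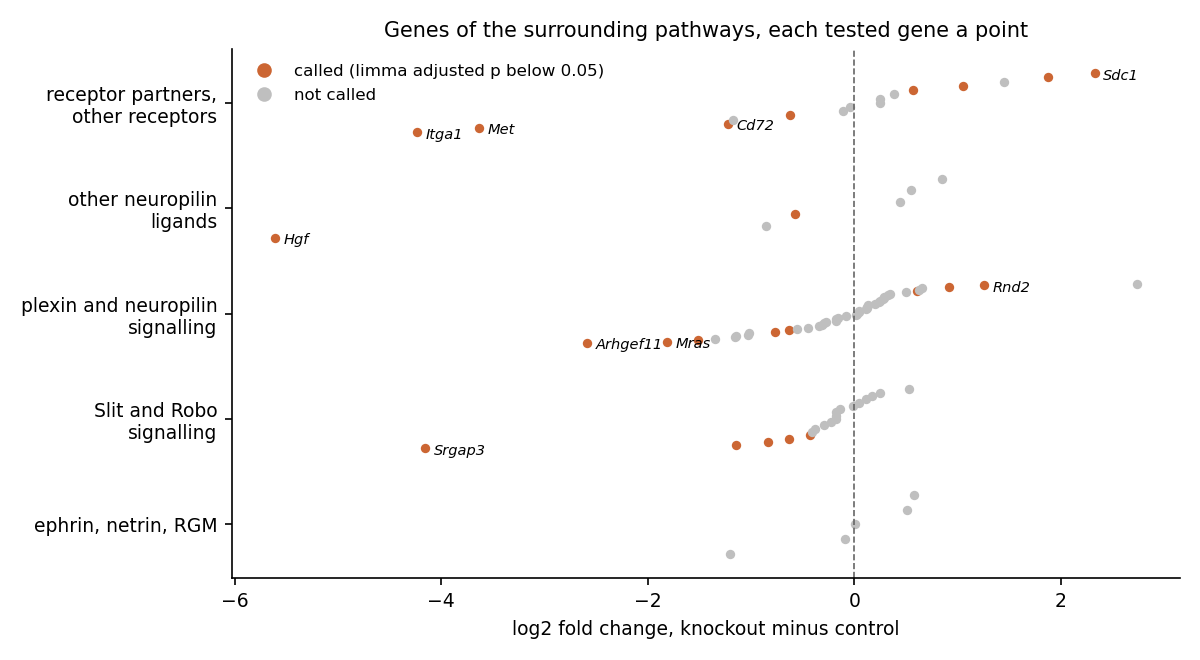
Each point is a tested gene of 1 of 5 lists of pathway genes, placed by its limma log2 fold change (knockout minus control), orange where called and grey where not; points are spread vertically within a list for legibility. Most signalling genes lie near 0, while Hgf (-5.61), Itga1 (-4.23), Srgap3 (-4.15) and Met (-3.63) lie far to the left.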

How the data were processed

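Per the labels' protocols, SMARTer amplification of low-input RNA from sorted GMPs preceded Ion Total RNA-Seq library preparation, so reads carry no molecular identifiers. Tools listed without roles, per the submitters' processing notes, were HTSeq, DESeq2, STAR, BWA 0.7.5a and Picard, with builds mm9 and NCBIM37. The deposited signal per gene and library was a gene count that the authors had divided by a size factor: 100% of values above 0 were whole multiples of 1 read, within 0.01 of a read, which gave back whole reads. The 5 rows that name no gene held 74.8 to 77.1% of the reads listed and were left out. Symbols came from GENCODE M21 (32897 of 37620 IDs), on another build than the authors' files, and were used with its exon lengths and transcript GC content. Promoter sequences are RefSeq's, on GRCm38.p6.

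The main test was limma (version 3.58.1, in R 4.3.3), 2-sided and with trend, on log2(value + 1) of genes whose mean was 10 or more, and group was its only term, checked on simulated counts. Fold changes are differences between group means of log2(value + 1), not ratios of the means: the added 1 shrinks changes of low genes, while 1 library near 0 can make them exceed the ratio of the means. edgeR 4.0.16 on the recovered reads tested 14458 genes and called 1687 higher and 2077 lower, with 3663 shared with limma in direction, and DESeq2 1.42.0 called 1921 and 2315. Alternatives changed the scaling, pseudocount, filter and library set, added the replicate number as a block, and corrected for GC content and transcript length. Replicates were distinct libraries: each pair differed beyond counting noise. The genes and lists were chosen with earlier results of these data known. Genes named from the pathway lists were, per list, up to 6 called genes with the lowest adjusted p and 2 uncalled genes with the highest mean. Values given outside this rule, for Plxna4, Plxna4os1, Slit1, Slit3 and single marker genes, were chosen after they were seen. Marker lists also covered mast cell, basophil and eosinophil (8 of 12 tested lower, 1 higher), megakaryocyte (5 of 10 lower, 1 higher), erythroid (1 of 11 lower, 5 higher), endothelial and stromal (3 of 7 lower, 2 higher), neuron and glia (1 of 4 higher), lineage and Sca1 (3 of 6 lower) and GMP genes (2 of 14 lower, 6 higher).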

Additional observations from a re-analysis of the deposited data

How the results depend on the processing

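The count of 3 higher and 4 lower guidance genes was the same under edgeR and DESeq2 on the recovered reads, TMM scaling, pseudocounts of 0.5 and 4, no filter beyond 1 read, and GC and length correction. At a mean of at least 50 it was 2 and 4, since Plxna1 was then not tested. With 1 library left out it ran from 2 to 3 higher and from 3 to 4 lower, while the counts over all genes ran from 1058 to 1796 higher and from 1413 to 2354 lower, the fewest higher without control replicate 2 and the fewest lower without control replicate 3. The median log2 fold change of the tested guidance genes was -0.79 at a mean of at least 50, and ran from -0.47 to 0.07 with 1 library left out. Same-numbered libraries of the 2 groups deviated from their group means with correlations of -0.10, 0.04 and -0.06. Correlations between unlike numbers ran from -0.07 to 0.12. A pairing by number was thus not seen, though 3 libraries a group cannot exclude one. With the replicate block the counts were 3 and 4 guidance genes and 1550 and 2014 of all genes. With the block and the GC and length correction they were 3 and 4, and 1903 and 2218. Among genes not called, estimates near 0 changed sign with 1 library left out: Sema4b (log2 fold change -0.47 to 0.074), Tyrobp (-0.20 to 0.057), Rac2 (-0.021 to 0.25), Cfl1 (-0.065 to 0.067), Git2 (-0.10 to 0.035) and Epha7 (-0.17 to 0.20). Git2 was at 0.14 after GC and length correction, with and without the replicate block. With the replicate block Cdc42 was not called (adjusted p = 0.0552, and 0.126 with the GC and length correction), nor was Pik3ca with both (0.0596). With 3 libraries a group, 17 guidance genes without a read and 17 more below a mean of 10, depth and replicate number limit what could be tested.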
